A study of Rattus norvegicus with 16 samples.

Results

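The arrays described here are the 6 of 16 rat ovary arrays on which Foxj1 was high, set against the other 10. Foxj1 encodes the forkhead transcription factor that switches on the genes of motile cilia. An array was taken as Foxj1-high when the brighter of the Foxj1 probes had a log2 value above 1 in the deposited table, in which 0 is the 75th percentile of each array. The arrays were thus chosen by their measured Foxj1 signal, and the split crosses the labelled groups. The difference between the Foxj1-high and the Foxj1-low arrays is therefore given as a description, without any test.

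RNA from the ovary of each of 16 female Jcl:SD (Sprague-Dawley) rats was hybridised to its own single-colour Agilent rat array. The groups were BRCA1+/- rats given olaparib, BRCA1+/- rats given vehicle, wild-type (WT) rats given olaparib and WT rats given vehicle, with 4 animals each. Olaparib is a PARP inhibitor that blocks an early step of DNA strand-break repair, and the heterozygous animals lack a working allele of Brca1, which acts when broken DNA is repaired from a sister copy. How the mutant allele was made is not given in the sources used here. Olaparib was injected under the skin once a day for 14 days at 50 mg/kg, beginning at 3 weeks of age, with tissue collection 24 h after the final dose. The schedule, age and solvent of the vehicle animals are not given in the sources used here.

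Motile cilia beat through dynein motors that slide the microtubule doublets of the axoneme, the cilium's inner frame, against each other. Radial spokes and a central pair of microtubules time the motors, tektins and related proteins line the inside of the doublets, and intraflagellar transport carries parts to the tip. In the female reproductive tract, multiciliated cells lie in the lining of the oviduct beside secretory cells, and the oviduct ends directly next to the ovary. The ovary itself is made up mainly of granulosa, theca and luteal cells, stroma, vessels and oocytes, under a thin surface epithelium.

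The 75th percentile of the processed signal lay between 202 and 566 intensity units per array, and 55.5% to 60.7% of the probes were well above background. The array files place replicates 1 and 2 of every group on slide 1 and replicates 3 and 4 on slide 2. In the 8 BRCA1+/- arrays the Foxj1-high class and slide 2 are the same arrays and cannot be told apart. The WT olaparib group has a Foxj1-high and a Foxj1-low array on each slide. Brca1 had a mean log2 signal of -1.11 ± 0.31 in BRCA1+/- vehicle and -0.44 ± 0.36 in WT vehicle ovaries (SD, n = 4 each), a difference of -0.66 in the limma fit with an adjusted p of 0.975. With olaparib it was -0.72 ± 0.36 in BRCA1+/- and -0.56 ± 0.49 in WT ovaries (SD, n = 4 each), a difference of -0.16 in the same fit. The granulosa and theca markers of the labelled tissue were well above background on all arrays of both classes. Inha, a subunit of the granulosa cell hormone inhibin, lay between 7.50 and 8.30 on the Foxj1-high arrays and between 7.20 and 8.84 on the Foxj1-low arrays. Ddx4, an oocyte marker, was dim, and was well above background on 3 Foxj1-high and 4 Foxj1-low arrays.

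The Foxj1-high arrays were BRCA1+/- olaparib replicates 3 and 4, BRCA1+/- vehicle replicates 3 and 4, and WT olaparib replicates 1 and 3. Their Foxj1 log2 signal was 3.30, 2.18, 4.24, 1.91, 4.06 and 3.85 in that order. On the 10 Foxj1-low arrays it ran from -6.17 to -0.75, with a median of -3.41. The array just inside the threshold was BRCA1+/- vehicle replicate 4, and the array just outside it was WT olaparib replicate 4 at -0.75. The empty interval between them, 2.66 log2 units, was the widest gap in the ordered Foxj1 values, and the next widest was 1.60. Foxj1 averaged 3.26 ± 0.99 in the Foxj1-high class (SD, n = 6) and -3.39 ± 1.62 in the Foxj1-low class (SD, n = 10). It was well above background on 8 of the 10 Foxj1-low arrays, so most of these held a measurable Foxj1 signal too. The lowest signal that counted as well above background lay between -5.99 and -4.92 by array, and values under it have no order. A second, dimmer Foxj1 probe separated the same arrays, at -2.82 or more against at most -3.25.

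The other ciliated-cell markers divided the arrays in the same way. Sntn encodes sentan, a protein of the ciliary tip. It ranged from 3.09 to 5.59 on the Foxj1-high arrays, and from -8.06 to 0.96 with a median of -3.29 on the Foxj1-low arrays. Tppp3, a tubulin polymerization protein, ranged from 4.96 to 7.19 on the Foxj1-high arrays and from 0.77 to 2.98 on the Foxj1-low arrays. Tekt4, a tektin of the axoneme, ranged from 1.81 to 4.95 on the Foxj1-high arrays and from -3.00 to -0.28 on the Foxj1-low arrays. Cutting the arrays at the widest gap in Sntn, in Tppp3 or in Tekt4 gave the same 6 arrays each time. The plot of the ciliated-cell markers by array shows the interval between the classes for each gene.

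**Figure D1:**
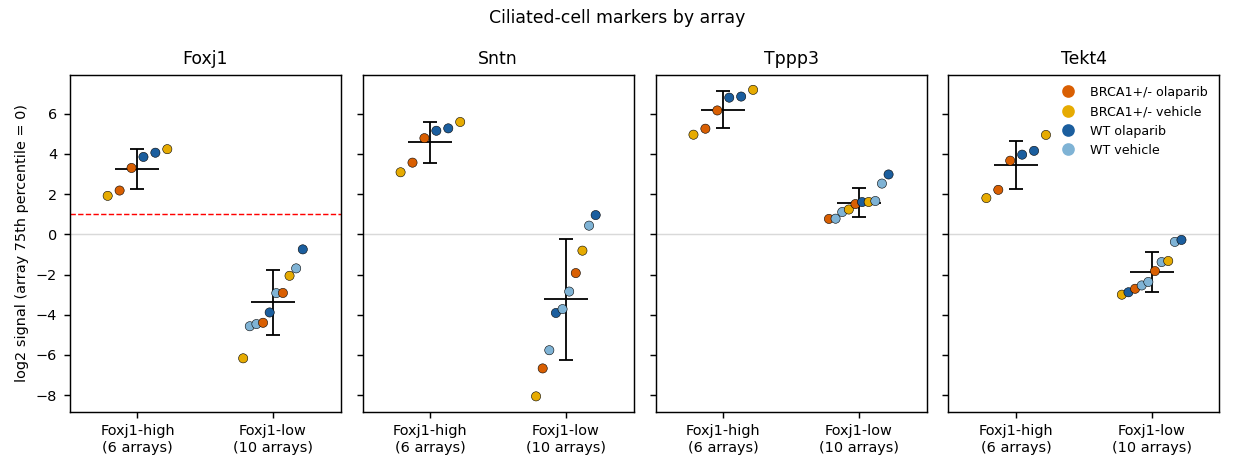
Log2 signal of Foxj1, Sntn, Tppp3 and Tekt4 on each of the 16 arrays, with the 6 Foxj1-high arrays left of the 10 Foxj1-low arrays. Points are arrays coloured by group, horizontal marks and bars are the mean and SD of each class, and the dashed line is the Foxj1 threshold of 1. For each gene every Foxj1-high array lies above every Foxj1-low array, and no WT vehicle array lies in the Foxj1-high class.

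The regions upstream of cilia genes are shown because these genes moved together and because RFX transcription factors, partners of FOXJ1 in building motile cilia, bind a DNA element called the X-box. Windows of 300 bases, from 250 before to 50 after the start of the gene, were read from RefSeq for the GRCr8 build, which holds Sntn and Tekt4 among the markers. The windows are Sntn at chr15:13956041-13956340 on the minus strand, Tekt4 at chr10:14992034-14992333 on the plus strand, Spag6l at chr11:97677590-97677889 on the plus strand and Tekt2 at chr5:143907675-143907974 on the minus strand. Capitals mark the X-box core GTTGCC, or GGCAAC where it lies on the other strand.
Sntn: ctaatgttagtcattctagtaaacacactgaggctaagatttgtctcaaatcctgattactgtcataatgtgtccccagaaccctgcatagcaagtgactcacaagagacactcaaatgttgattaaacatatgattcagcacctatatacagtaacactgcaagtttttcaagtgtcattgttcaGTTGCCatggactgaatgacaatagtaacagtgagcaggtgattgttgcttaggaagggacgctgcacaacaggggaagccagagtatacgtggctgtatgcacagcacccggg
Tekt4: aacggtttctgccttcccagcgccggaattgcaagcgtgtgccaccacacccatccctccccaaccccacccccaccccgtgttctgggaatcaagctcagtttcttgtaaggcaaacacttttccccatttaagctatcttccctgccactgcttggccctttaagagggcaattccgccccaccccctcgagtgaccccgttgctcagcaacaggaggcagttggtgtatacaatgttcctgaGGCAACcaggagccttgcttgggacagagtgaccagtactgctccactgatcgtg
Spag6l: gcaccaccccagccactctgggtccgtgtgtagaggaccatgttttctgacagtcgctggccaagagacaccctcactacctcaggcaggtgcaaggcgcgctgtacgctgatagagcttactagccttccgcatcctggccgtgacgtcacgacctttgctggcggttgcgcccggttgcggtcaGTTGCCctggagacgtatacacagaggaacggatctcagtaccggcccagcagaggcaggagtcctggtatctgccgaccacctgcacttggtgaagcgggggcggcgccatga
Tekt2: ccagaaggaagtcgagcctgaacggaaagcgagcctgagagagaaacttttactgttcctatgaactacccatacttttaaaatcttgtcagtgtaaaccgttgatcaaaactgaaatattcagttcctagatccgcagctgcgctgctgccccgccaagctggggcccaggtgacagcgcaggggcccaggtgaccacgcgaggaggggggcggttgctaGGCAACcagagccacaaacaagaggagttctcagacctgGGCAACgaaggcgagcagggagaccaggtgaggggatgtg

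The letters GTTGCC, searched on both strands, stood in 36.8% of the 106 windows of 79 genes of 5 lists of motile cilia genes. They stood in 9.09% of the 44 windows of the epithelium and secretory lists and in 12.2% of all 33469 windows. Over the windows of all features that were higher without overlap the share was 20.8%. The related form GTTGCTANG, whose sites can overlap GGCAAC, stood in 26.4% of the cilia windows, against 1.92% of all windows. The forkhead letters GTAAACA, the kind of site FOXJ1 binds, stood in 5.66% of the cilia windows and 3.78% of all windows. They stood in 2.67% of the windows of genes that passed the filter on dim probes. Over the windows of all features higher without overlap their share was 5.65%. These shares are descriptions of letters in fixed windows and were not tested.

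Over all 21808 features tested, of which 17382 carried a gene symbol, the classes did not overlap for 905 features higher on the Foxj1-high arrays (4.15%) and for 108 lower (0.495%). A mean difference of 4-fold or more was seen for 1004 features higher (4.6%) and 18 lower (0.0825%). Of the 905 features, 226 were not well above background on any Foxj1-low array, and 742 were also 4-fold or more higher (3.4% of all). Of the 18 features 4-fold or more lower, 2 did not overlap (0.00917% of all), and neither carried a symbol. The median difference over all features was -0.12 log2 units. The split accounted for 40.5% of the variance between arrays over all features, against 16.1% for the slide and 18.5% for the 4 labelled groups. The labelled groups divide the arrays into more parts than the class or the slide does, and class and slide share arrays. The shares are thus not directly comparable. The Foxj1 rule fixed the contrast between the classes, so its share describes how far the split reaches and nothing more.

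Most measured motile cilia genes were higher on the Foxj1-high arrays. They made up 73 of the 808 symbols that were higher without overlap. In 5 lists of motile cilia genes together, 100 of 118 listed genes passed the filter on dim probes. Of these genes, 73 were higher on the Foxj1-high arrays without overlap, against 4.15% of all features, and none was lower without overlap. Their median difference was 3.68 log2 units, against -0.12 over all features, and 67 of the 100 were 4-fold or more higher. Only 15 of the 100 were not well above background on any Foxj1-low array. Since the filter asks for signal on 3 arrays of any class, a gene seen only on the Foxj1-high arrays passed through that class, and these counts are descriptions. Many cilia genes were under the background limit on some Foxj1-low arrays, and the size of their difference then depends on how dim signals are treated. Values from normexp background correction with quantile normalization, which compresses dim signals, are therefore given beside the differences as normexp values.

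Among the transcription factors and regulators of ciliation, 6 of 11 measured genes were higher without overlap, against 4.15% of all features. The median difference was 3.02 (1.32 with normexp). Tp73, a p53 family factor that acts above FOXJ1 in multiciliated cells, averaged -0.10 ± 1.16 on the Foxj1-high arrays and was well above background on 1 of the 10 Foxj1-low arrays, with a normexp difference of 2.79. Foxn4, another forkhead factor of multiciliated cells, was not well above background on any Foxj1-low array and was at least 29.4-fold higher on the Foxj1-high arrays. Its normexp difference was 2.28. Ccdc78, a protein of the deuterosome on which centrioles multiply, differed by 6.08 log2 units and by 3.75 with normexp.

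The axonemal dynein list showed 21 of 26 measured genes higher without overlap, against 4.15% of all features, with a median difference of 3.68 (1.59 with normexp). Dynlrb2, a dynein light chain, ranged from 2.43 to 5.03 on the Foxj1-high arrays and from -4.59 to -0.31 on the Foxj1-low arrays. Dnali1, an inner arm light intermediate chain, differed by 6.49 log2 units (3.92 with normexp). Odad2, of the complex that docks outer arms, was well above background on 2 Foxj1-low arrays, and its normexp difference was 1.87. Dnai3, an intermediate chain, was at least 8.09-fold higher (1.07 with normexp). Among the factors that assemble dyneins in the cytoplasm, 6 of 12 measured genes were higher without overlap, with a median of 1.78 (0.77 with normexp). They included Dnaaf6 and Zmynd10, each well above background on 1 Foxj1-low array with normexp differences of 2.60 and 2.36, and Dnaaf11 (at least 10.8-fold) and Daw1 (at least 12.9-fold).

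In the list of radial spoke and central pair proteins, 20 of 25 measured genes were higher without overlap, against 4.15% of all features. The median difference was 3.73 (1.45 with normexp). Spag6l, a central pair protein, averaged 1.81 ± 0.93 on the Foxj1-high arrays and was well above background on 5 Foxj1-low arrays. Its difference was 7.33, or 4.31 with normexp, and its second probe differed by 3.29. Rsph4a, a radial spoke head protein, was at least 24.1-fold higher and Rsph14 at least 25.3-fold, with normexp differences of 2.20 and 2.11. Dydc2 was well above background on 2 Foxj1-low arrays, and its normexp difference was 2.73. Of the tektins and proteins inside the doublets, 20 of 26 measured genes were higher without overlap, with the highest median of all lists, 4.57 (2.26 with normexp). Tekt2 averaged 1.68 ± 1.01 on the Foxj1-high and -4.48 ± 0.98 on the Foxj1-low arrays, where 9 of 10 were well above background. Cfap107 and Cfap161, proteins of the cilia and flagella family, were well above background on 2 and 3 Foxj1-low arrays, with normexp differences of 2.68 and 3.27.

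Genes of intraflagellar transport and the basal body, which most cells use to build a primary cilium, differed far less. Their median difference was 0.44 log2 units (0.28 with normexp) over 32 genes. Of these genes, 6 were higher without overlap, against 4.15% of all features, and none was 4-fold or more higher. Ift70b, Wdr19, Ift81 and Ift46, all parts of the transport trains, differed by 1.47, 1.22, 1.05 and 0.90, and by 1.18, 0.27, 0.62 and 0.62 with normexp. These 4 genes were well above background on all 16 arrays.

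**Figure D2:**
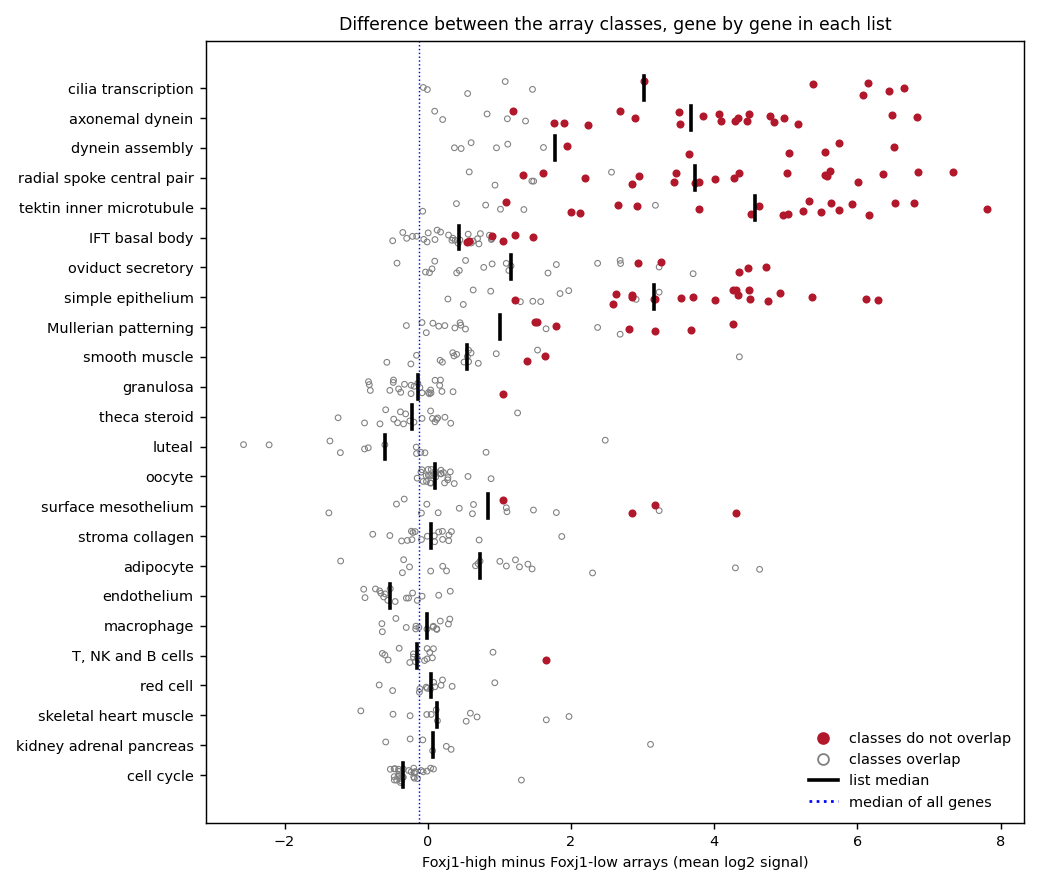
Difference in mean log2 signal, Foxj1-high minus Foxj1-low arrays, for each measured gene of 24 lists. Filled points are genes whose values do not overlap between the classes, open points overlap, black bars are list medians and the dotted line is the median of all genes at -0.12. The motile cilia lists and simple epithelium reach medians of 1.78 to 4.57, while granulosa, theca, oocyte, stroma and immune lists lie close to the median of all genes.

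Genes of simple epithelia were also higher. In that list all 31 measured genes had a positive difference, with a median of 3.15 (1.79 with normexp). For 20 of them the classes did not overlap, against 4.15% of all features higher without overlap. Over all features, 8046 of 21808 had a positive difference. Epcam, an adhesion protein of epithelial cells, ranged from 0.77 to 3.43 on the Foxj1-high arrays and from -3.39 to -1.73 on the Foxj1-low arrays. Cldn7 and Cldn4, claudins of tight junctions, differed by 6.29 and 5.37, and by 3.27 and 3.09 with normexp. Cldn7 was well above background on 4 Foxj1-low arrays. Elf3, an epithelial transcription factor, differed by 6.12, and by 4.92 with normexp. Grhl2, a factor that maintains epithelial junctions, was at least 7.82-fold higher (1.09 with normexp). Cdh1, the E-cadherin gene, averaged 2.97 ± 0.81 on the Foxj1-high and 1.51 ± 1.34 on the Foxj1-low arrays, and its values overlapped.

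The markers of oviduct secretory cells did not divide the arrays as the ciliary genes did. Pax8, a paired-box factor of this lineage, ranged from -0.77 to 2.38 on the Foxj1-high arrays and from -2.97 to -0.66 on the Foxj1-low arrays. Wfdc2 ranged from 3.29 to 5.58 and from 3.19 to 3.97 on the same classes, and Krt7 from 2.29 to 4.95 and from -0.93 to 2.55. The overlap came from BRCA1+/- vehicle replicate 4 for Pax8 and Krt7, at -0.77 and 2.29, and from BRCA1+/- olaparib replicate 4 for Wfdc2, at 3.29. The other 5 Foxj1-high arrays lay above all Foxj1-low arrays for the gene in question. In the wider secretory list, with a median of 1.16, 5 of 25 measured genes were higher without overlap, against 4.15% of all features. They included the claudin Cldn10, well above background on 4 Foxj1-low arrays (2.30 with normexp), and the mucins Muc1, on 1 (1.5 with normexp), and Muc4, on 9 (2.87 with normexp). Ltf, lactoferrin, differed by 3.71 with overlap, and by 2.05 with normexp. Ovgp1, the oviduct glycoprotein, was not analysed here.

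Of the factors that pattern the reproductive tract, Hoxa11 and Hoxa13 were not well above background on any array, and Hoxa9 and Hoxa10 were not analysed here. Sox17 was likewise dim on all 16 arrays, and Pax2 was well above background on 2 Foxj1-high arrays only. In the Mullerian duct list, 7 of 20 measured genes were higher without overlap, against 4.15% of all features. The list median was 1.01 (0.33 with normexp). Pgr, the progesterone receptor, was at least 9.15-fold higher and Sall1 at least 4.20-fold, with normexp differences of 1.15 and 0.69. Dach2, well above background on 1 Foxj1-low array, had a normexp difference of 0.50. Lhx1, seen on 4 of the 6 Foxj1-high arrays, was at least 1.55-fold higher (0.40 with normexp). Ciliary and epithelial genes thus divided the arrays more fully than secretory and tract genes. The tissue from which the signal came was not tested, and the classes are called by Foxj1 throughout.

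The 15 symbols with the largest differences among those without overlap, well above background on every Foxj1-high array, included other axoneme genes and genes with other roles. Most were under the background limit on part of the Foxj1-low arrays, so their order among themselves is not given. Cuzd1 differed by 8.43 log2 units and by 5.52 with normexp, was well above background on 4 Foxj1-low arrays, and had a second probe that differed by -0.19. Pifo, a regulator of ciliary disassembly, Cdhr3, a cadherin-related protein of ciliated cells, and Htr3a, a serotonin receptor channel, were above the limit on 4, 4 and 3 Foxj1-low arrays, with normexp differences of 4.65, 4.02 and 3.73. LOC102554187, Sntn and Liat1, above it on 5, 7 and 5, had normexp differences of 5.43, 6.09 and 3.97. Mmp7, an epithelial matrix metalloproteinase, ranged from 3.48 to 5.23 on the Foxj1-high and from -6.43 to 1.31 on the Foxj1-low arrays. Gad1, the enzyme that makes the transmitter GABA, was above the limit on 5 Foxj1-low arrays, with a normexp difference of 4.09. Wdr38, Lkaaear1 and C16h10orf53 were above it on 4 each and Psapl1 on 2, with normexp differences of 4.38, 4.00, 3.87 and 3.43. C20h21orf58 was not well above background on any Foxj1-low array and was at least 38.1-fold higher, with a normexp difference of 2.87.

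The genes lower on the Foxj1-high arrays differed much less. Among features without overlap, the symbols with the largest differences without overlap were Ago3, Rbfox1, LOC103693587, LOC102555054, Chka, Inka1, Armcx4, Nrip3, Zbed4 and Ipo7, with values from -1.44 to -0.82 log2 units, and from -1.18 to -0.26 with normexp. Chka, choline kinase alpha of phospholipid synthesis, averaged 0.80 ± 0.43 on the Foxj1-high and 2.05 ± 0.41 on the Foxj1-low arrays. Ago3, an Argonaute protein of small RNA pathways, was well above background on 2 of the 6 Foxj1-high arrays, with a normexp difference of -0.26. No member of the 24 lists was lower without overlap, against 0.495% of all features.

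Cell types of the ovary showed small differences. The granulosa list had a median of -0.14 over 25 genes, the theca and steroid list -0.22 over 20, the oocyte list 0.10 over 27, stroma 0.04 over 20 and endothelium -0.52 over 17, against -0.12 over all features. Wt1, a factor of granulosa, surface and Mullerian epithelium, was at 2.52 ± 0.42 on the Foxj1-high and 1.48 ± 0.25 on the Foxj1-low arrays. It was the granulosa list's single member without overlap, near the 4.15% of all features higher without overlap. Nr5a2, a nuclear receptor of granulosa and luteal cells, differed by -0.83, Sfrp4 by -0.82 and Gatm by -0.80, all with overlap. Of the theca genes, Star, which carries cholesterol into mitochondria, differed by -1.25, or -0.33 without WT olaparib replicate 3. Lhcgr, the luteinizing hormone receptor, differed by -0.88, or -0.50 without BRCA1+/- olaparib replicate 4, and Fdx1 by -0.67. Of the vessel genes, 15 of 17 had a negative difference, among them Flt1 (-0.89), Cdh5 (-0.88), Esam (-0.73) and Egfl7 (-0.67), again with overlap. Over all features, 13762 of 21808 had a negative difference. In whole ovaries, fewer cells of a type and less RNA per cell cannot be told apart.

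Surface and mesothelial genes had a median of 0.84 (0.15 with normexp), with the keratins Krt18 (4.30), Krt8 (3.17) and Krt19 (2.85) without overlap. These keratins are shared with other simple epithelia. The more restricted surface markers Upk3b and Lrrn4 differed by 0.64 and -0.44 with overlap. The surface marker Msln differed by 1.096, also with overlap. Smooth muscle genes had a median of 0.55 (0.33 with normexp). Actg2, the enteric smooth muscle actin, ranged from 5.93 to 7.32 on the Foxj1-high and from 4.38 to 5.77 on the Foxj1-low arrays, and Cnn1, calponin, differed by 1.63 without overlap. Des, the muscle intermediate filament, differed by 1.53 with overlap. Cd8a, a co-receptor of cytotoxic T cells, was the single member of the macrophage and lymphocyte lists without overlap. Immune genes outside these lists were not examined, and 4.15% of all features were higher without overlap. Cd8a was at -1.80 ± 0.65 on the Foxj1-high and -3.45 ± 0.49 on the Foxj1-low arrays, a difference of 1.65, or 0.73 with normexp. The macrophage list had a median of -0.01, the lymphocyte list -0.14, red cells 0.04, striated muscle 0.13, kidney and other organs 0.07 and cell cycle genes -0.34. Within the organ list Lrp2, an endocytic receptor of absorptive epithelia, differed by 3.11 with overlap (1.49 with normexp), and Aurkb had the highest difference of the cell cycle genes, 1.31, with overlap.

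Fat genes were uneven. The adipocyte list had a median of 0.73 over 19 genes with none free of overlap, 0.37 without WT olaparib replicate 1 and 0.26 with normexp. Adipoq, the adiponectin gene, ranged from -0.45 to 4.79 on the Foxj1-high arrays and from -7.55 to 2.46 on the Foxj1-low arrays. The mean level of the list stood 2.79 log2 units above the Foxj1-low average on WT olaparib replicate 1, and 1.96 above it on WT olaparib replicate 2, a Foxj1-low array. Plin1, a lipid droplet protein, was well above background on 1 array of each class.

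The classes were not uniform inside. The mean level of the radial spoke list, relative to the Foxj1-low average, was 4.69 on BRCA1+/- vehicle replicate 3, 4.42 on WT olaparib replicate 1, 4.28 on WT olaparib replicate 3 and 3.65 on BRCA1+/- olaparib replicate 3. It was 2.80 on BRCA1+/- olaparib replicate 4 and 2.55 on BRCA1+/- vehicle replicate 4. These replicates 4 also had the lowest simple epithelium levels of the class, 2.25 and 1.83, against 3.16 to 3.99 on the other Foxj1-high arrays. Among the Foxj1-low arrays, WT olaparib replicate 4, the array nearest to the threshold, had the highest radial spoke level, 0.79, followed by WT vehicle replicate 2 at 0.58. The simple epithelium level of these Foxj1-low arrays was 0.08 and -0.04.

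**Figure D3:**
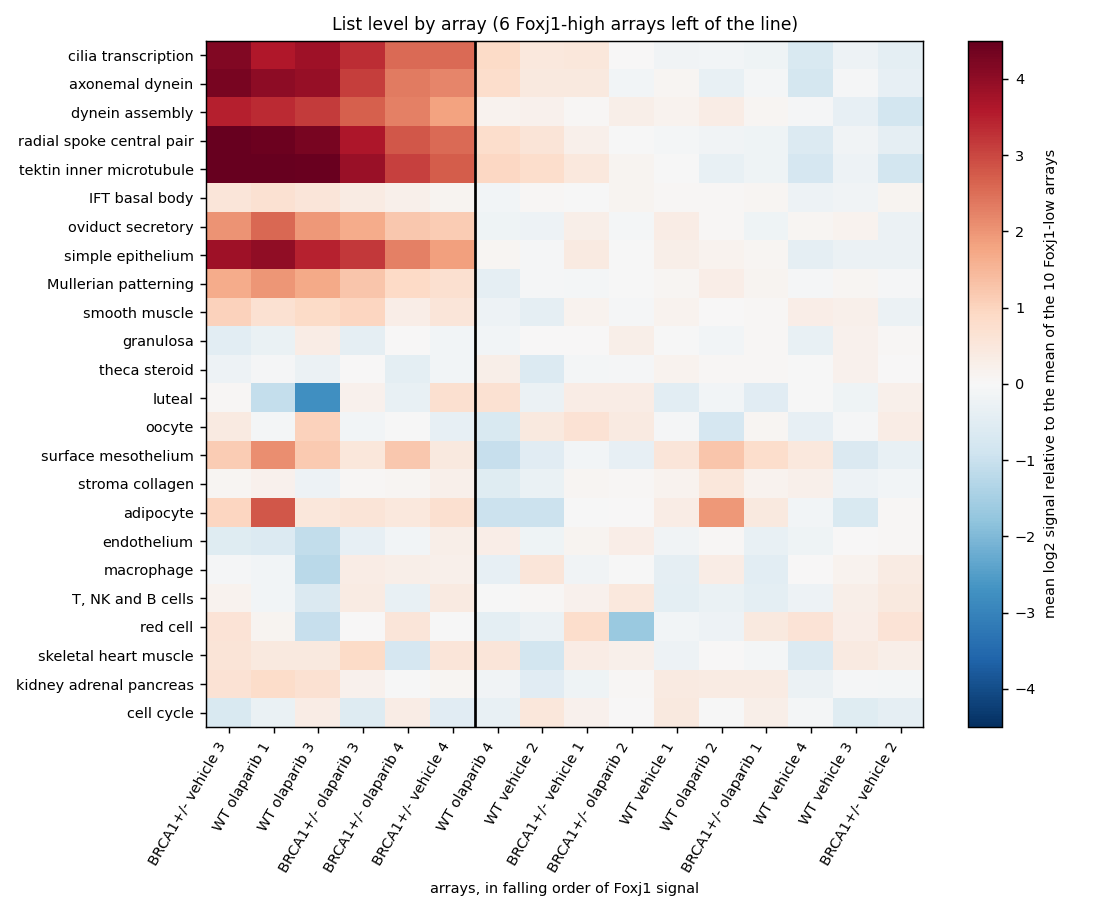
Mean log2 signal of each list on each array, relative to the mean of the 10 Foxj1-low arrays, with arrays in falling order of Foxj1 and the 6 Foxj1-high arrays left of the line. The motile cilia, simple epithelium, secretory and Mullerian lists are raised across the Foxj1-high arrays and least so on BRCA1+/- olaparib replicate 4 and BRCA1+/- vehicle replicate 4. The luteal list reads -2.75 on WT olaparib replicate 3.

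Inside each class the level of the markers was set against that of Foxj1. Foxj1 chose the classes, so these 16 correlations, 8 genes in each class, are a description without a test, and the arrays of a class share a threshold and, for the most part, a slide. Over the 6 Foxj1-high arrays Pax8 and Krt7 had Pearson r with Foxj1 of 0.99 and 0.98, each with a Spearman rho of 1.0. Tppp3, Tekt4 and Sntn had r of 1.00, 0.98 and 0.99, Epcam 0.88, Wfdc2 0.86 and Cdh1 0.71. Without the 2 arrays farthest from the median Foxj1, r was 0.97 for Pax8, 0.88 for Krt7, 0.77 for Epcam, 0.60 for Wfdc2 and -0.44 for Cdh1.

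Over the 10 Foxj1-low arrays r with Foxj1 was 0.96 for Sntn, 0.82 for Tekt4 and 0.69 for Tppp3, with rho of 0.92, 0.77 and 0.54. Without the 2 arrays farthest from the median Foxj1, r was 0.92, 0.67 and 0.55. Foxj1 and Sntn were below the background limit on 2 and 3 of these 10 arrays. For the secretory and epithelial genes r was -0.25 for Pax8, -0.38 for Krt7, -0.36 for Wfdc2, 0.38 for Epcam and -0.32 for Cdh1, and the difference in r between the classes was not tested. Within a slide, r of Pax8 with Foxj1 was 0.99 over the 5 Foxj1-high arrays of slide 2, and r of Sntn was 0.97 over the 7 Foxj1-low arrays of slide 1. The genes most like Foxj1 inside the Foxj1-high class included Cfap77, Rsph14, Dnaaf3 and Lrriq4, with r of 0.998 or more over 6 arrays.

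**Figure D4:**
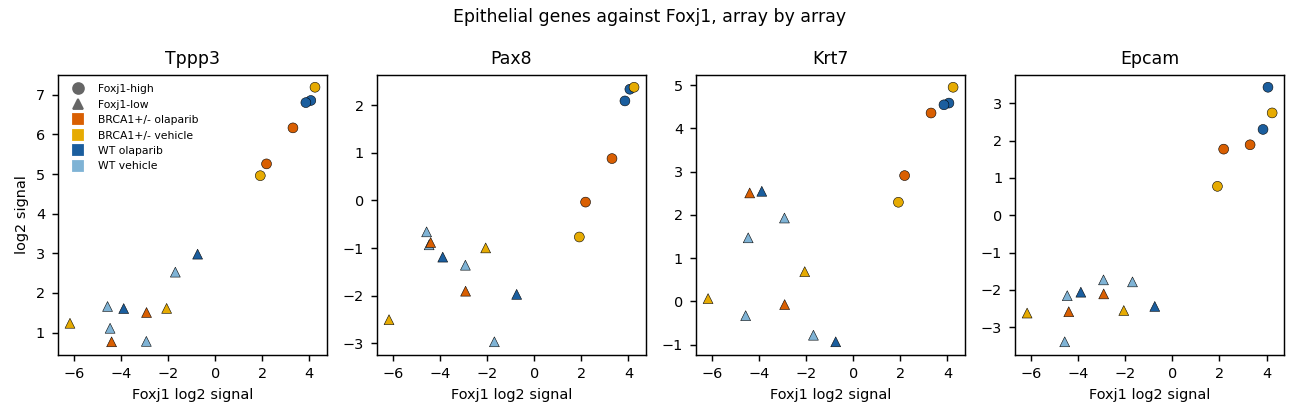
Log2 signal of Tppp3, Pax8, Krt7 and Epcam against that of Foxj1 on each array, with circles for the 6 Foxj1-high and triangles for the 10 Foxj1-low arrays, coloured by group. Inside the Foxj1-high class Pax8 and Krt7 follow Foxj1 with r of 0.99 and 0.98, and inside the Foxj1-low class their r is -0.25 and -0.38.

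Genes of the corpus luteum list separated arrays in another way. The list had a median of -0.60 over 13 genes, which became -0.24 without WT olaparib replicate 3 and 0.07 without WT olaparib replicates 1 and 3. Fabp6, a bile acid-binding protein, read -3.62 on WT olaparib replicate 3 and between 5.79 and 8.31 on the other Foxj1-high arrays, against 5.49 to 9.11 on the Foxj1-low arrays. Star read 0.51 on that array and between 5.36 and 7.02 on the other Foxj1-high arrays, against 5.38 to 7.16 on the Foxj1-low arrays. Onecut2, a homeobox transcription factor, read -6.43 on WT olaparib replicate 1 and -7.96 on WT olaparib replicate 3, and at least 0.06 on the other Foxj1-high arrays, against -1.36 to 2.77 on the Foxj1-low arrays. Ptgfr, the receptor through which prostaglandin F2-alpha acts on the corpus luteum, read -4.27 and -7.16 on the same WT olaparib arrays, and between 0.02 and 1.16 on the other Foxj1-high arrays, against -2.42 to 1.89 on the Foxj1-low arrays. Ptgs2, a prostaglandin synthase, ran the other way with a class difference of 2.48, or 1.00 with normexp. WT olaparib replicate 1 lay inside the range of the other Foxj1-high arrays for Fabp6, Star and Cyp11a1, and both WT olaparib replicates did so for Lhcgr and Hsd3b1. The part of these arrays in the class difference beyond the medians given was not tested.

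**Figure D5:**
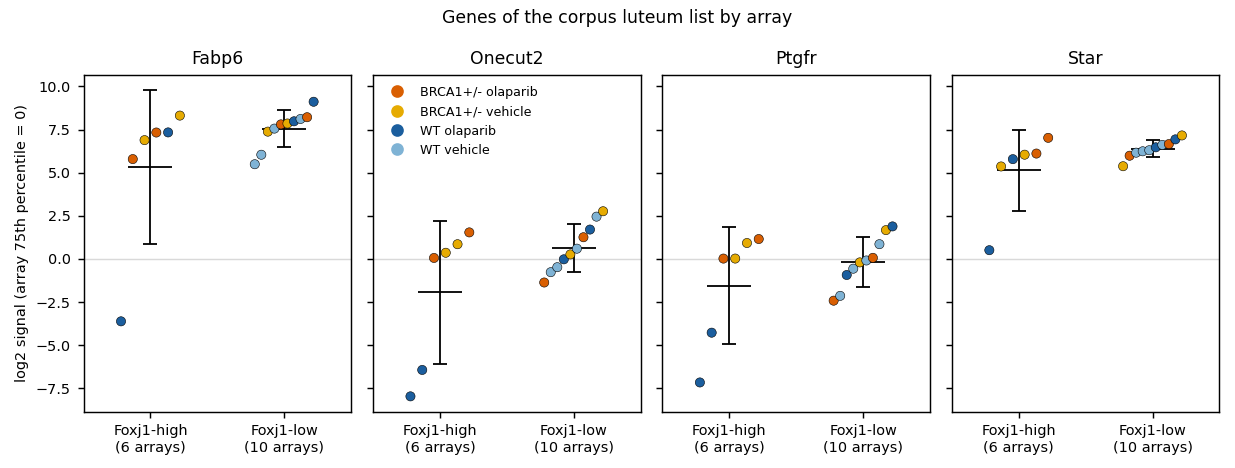
Log2 signal of Fabp6, Onecut2, Ptgfr and Star on each array, with the 6 Foxj1-high arrays left of the 10 Foxj1-low arrays, coloured by group, with the mean and SD of each class. WT olaparib replicate 3 reads -3.62 for Fabp6 and 0.51 for Star, and the WT olaparib replicates 1 and 3 hold the lowest Onecut2 and Ptgfr values.

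Whether the class followed the labels was tested with Fisher's exact test, two-sided, adjusted over 3 tests. Foxj1-high arrays made up 4 of 8 olaparib and 2 of 8 vehicle arrays (exact adjusted p = 0.61), 4 of 8 BRCA1+/- and 2 of 8 WT arrays (exact adjusted p = 0.61), and 5 of 8 slide 2 and 1 of 8 slide 1 arrays (exact adjusted p = 0.36). By group, there were 2 of 4 in BRCA1+/- olaparib, BRCA1+/- vehicle and WT olaparib each, and 0 of 4 in WT vehicle. None passed the threshold, and with 8 against 8 arrays a share as uneven as 5 against 1 does not pass. The labels played no part in the Foxj1 rule.

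No WT vehicle array was Foxj1-high, and the labelled comparisons that use this group were fitted with and without the class. Without the class in the model, olaparib against vehicle in WT ovaries gave median differences of 2.24 log2 units for the axonemal dynein list, 2.14 for radial spokes, 2.77 for tektins and 2.03 for simple epithelium, against -0.05 over the 17382 genes with a symbol. With the class in the model these medians were 0.55, 0.58, 0.39 and 0.63, against 0.02 over those genes. BRCA1+/- against WT with vehicle gave medians of 1.83, 1.70, 1.95 and 1.51 for the same lists without the class, and 0.05, 0.02, -0.10 and 0.02 with it. For olaparib in BRCA1+/- ovaries, where each group holds 2 Foxj1-high arrays, the class left the dynein median at -0.25. No gene of these lists was called in either model. The class was cut from Foxj1, so lower medians of cilia lists with the class in the model follow from how it was built and are a description.

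The spread of the ciliary genes was smaller with the class in the model. The median residual SD of the 100 motile cilia genes was 0.804 with the class and 1.97 without it, against 0.425 and 0.454 over all features. Foxj1, which set the class, is a member of these lists, so the narrowing has no test.

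With the class in the model, limma called no gene at an adjusted p under 0.05 in any of the 5 labelled comparisons, 0% of 21808 features each. At an unadjusted p under 0.05 it gave 678 features for olaparib in WT ovaries, 338 for olaparib in BRCA1+/- ovaries, 1064 for genotype with vehicle, 411 for genotype with olaparib and 697 for the interaction (5% of the features tested is 1090), in which a positive value means a larger olaparib difference in BRCA1+/- than in WT ovaries. Over the alternatives these counts ran from 431 to 1908, 180 to 735, 749 to 1835, 177 to 839 and 313 to 1673. The symbols with the smallest unadjusted p are named as values that did not pass. For olaparib in WT these were Ccl1 (1.59), Hpcal4 (1.33) and Slc37a1 (0.78) among the positive, and Olfm4 (-2.71), Kif26b (-2.21) and Saal1 (-1.84) among the negative log2 differences. Olfm4, an olfactomedin, averaged -5.97 ± 0.83 in WT olaparib and -3.75 ± 0.68 in WT vehicle ovaries (SD, n = 4 each). That WT olaparib mean lay within the range of the background limits of the arrays. Under the whole range lay the means of Kif26b in WT olaparib (-6.81) and of Ccl1 and Hpcal4 in WT vehicle (-6.41 and -6.35). The sizes of these differences therefore depend on dim signals.

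For olaparib in BRCA1+/- the symbols were LOC103691330 (1.12), Tvp23a (1.31), LOC100909782 (0.98), Tbx20 (-3.40), Treml1 (-1.09) and LOC100909398 (-2.40). Tbx20, a T-box factor, averaged -7.77 ± 0.22 in BRCA1+/- olaparib and -4.37 ± 1.01 in BRCA1+/- vehicle ovaries (SD, n = 4 each). Its BRCA1+/- olaparib mean and the BRCA1+/- vehicle mean of Tvp23a (-6.21) lay under the background limit of every array. The sizes of these differences are thus uncertain. For genotype with vehicle they were Ccl1 (1.71), Chd7 (0.87), Nr4a3 (2.22), LOC100909782 (-1.47), Kiss1 (-1.84) and Kcnt1 (-1.13). Kiss1 encodes kisspeptin, a neuropeptide of reproductive control that is also made in the ovary. The BRCA1+/- vehicle mean of Kiss1 (-6.10) and the WT vehicle mean of Ccl1 lay under that limit too. For genotype with olaparib they included Defb20 (0.67), LOC102551351 (1.73), Pcdhb5 (1.31), Dach2 (-1.77) and LOC102548186 (-1.73). Dach2 is also a member of the Mullerian list. WT olaparib means under the limit were those of LOC102551351 (-6.39) and Pcdhb5 (-6.24). BRCA1+/- olaparib means under it were those of Dach2 (-6.02) and LOC102548186 (-6.49). For the interaction they were Olfm4 (3.46), LOC103691330 (1.98), Saal1 (2.41), Hspa4l (-2.43), Tbx20 (-4.09) and Nr4a3 (-2.83), where the dim means of Olfm4 and Tbx20 given above enter. The adjusted p of each was 0.975 or more in limma with Benjamini-Hochberg adjustment.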

How the data were processed

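Spot signals are the authors' Agilent Feature Extraction output (10.7 per the submitters' processing notes, 10.7.1.1 per the file headers). The processed signal is an intensity after background subtraction and detrending within each array, per the file headers. The deposited table holds log2 values, which matched the scanner values used here up to an offset for each array.

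The log2 signal used here is scaled to each array's 75th percentile over probes other than controls, with spots averaged per probe and outlier spots left out. Probes well above background on at least 3 of 16 arrays were kept (28935). A gene is its kept probe with the highest mean, named by accession, symbol, older symbol or, failing these, the gene name supplied with the array. A fold given as "at least" sets the Foxj1-high mean against the Foxj1-low mean, with each low array raised to its lowest signal well above background. It applies to this scaled signal only, and the normexp differences of these genes lie under it. Probe coordinates (rn4) were not used.

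Labelled comparisons used limma 3.58.1 in R 4.3.3 with 4 group means and the class (two-sided, 11 residual degrees of freedom, Benjamini-Hochberg). The comparison of olaparib in WT was checked on simulated data. It recovered 16 of 50 added changes of 1 log2 unit, 38 of 50 of 2 and 45 of 50 of 4, so many small changes would be missed. SciPy 1.17.1 gave Fisher's exact tests. The number of arrays limits the precision.

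The arrays, the 24 lists (536 genes, 471 kept) and the motifs were chosen with earlier results of these data known. Named genes are the markers, the 15 highest and 10 lowest symbols without overlap, up to 4 per list by size, 5 most like Foxj1, and 3 symbols per direction with the smallest p in each labelled comparison; 2 genes that this rule names are not reported here. Sox17 and Pax2 lie outside the fixed marker list and were chosen after their values were seen. Alternatives covered normalization, the filter, probe averaging, blocks, slides and each array left out.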

Additional observations from a re-analysis of the deposited data

Results flagged for a closer look

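In 316 sets of values, each a named gene or a list level inside a class of arrays or a marker inside a labelled group, 28 had an array that stood far from the others by Dixon's criterion. Chance alone flags about 1 in 20 such sets. WT olaparib replicate 3 held the most. Among the Foxj1-high arrays it read -3.62 for Fabp6, 0.51 for Star, -3.60 for LOC103693587, -3.16 for Dazl, 1.07 for Fcer1g, 3.78 for Lyz2 and -7.71 for Hba-a3, where the other Foxj1-high arrays read 3.99 to 5.24. Hba-a3 was as low on 2 Foxj1-low arrays, at -7.91 on WT olaparib replicate 2 and -7.86 on BRCA1+/- olaparib replicate 2. Its macrophage list level was -1.20 and its red cell list level -1.05, relative to the Foxj1-low average. The macrophage genes of that array were low together with its luteal genes, and Dazl, an oocyte gene, was high.

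WT olaparib replicate 1 had an adipocyte list level of 2.79, against 0.48 to 0.98 on the other Foxj1-high arrays. WT olaparib replicate 2 had an adipocyte list level of 1.96 among the Foxj1-low arrays, with Cidec, a lipid droplet gene, at -3.15, and read -7.79 for Dazl, -4.87 for Zar1 and -3.13 for LOC102555054. WT olaparib replicate 4 read 1.66 for Flt1, -2.93 for Klf1 and 1.17 for Cfap77, and had a Mullerian list level of -0.39.

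BRCA1+/- olaparib replicate 4 read -5.24 for Pcp4 and -1.68 for Msr1 and had a striated muscle list level of -0.77. BRCA1+/- vehicle replicate 3 read -3.37 for Klf1. BRCA1+/- olaparib replicate 2 had a red cell list level of -1.68. WT vehicle replicate 4 read -1.58 for Ift81 and 3.37 for Des, WT vehicle replicate 1 read -4.47 for Pcp4, and WT vehicle replicate 2 had a theca list level of -0.63.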

How the results depend on the processing

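The count of features 4-fold or more higher, 1004, was 321 with normexp and quantile normalization and 300 with the filter on all 16 arrays, which tests fewer features, and 912 to 1104 with an array left out. The count 4-fold or more lower, 18, was 2 with normexp, 6 with the filter on all arrays, 37 adjusted for the 4 groups, 48 with slide as a block, 147 and 66 within slides 1 and 2, and 349 in WT olaparib arrays only, an alternative chosen after seeing the data. With an array left out it ran from 7 (without WT olaparib replicate 3) to 40 (without BRCA1+/- vehicle replicate 4), and was 31, 29 and 28 without BRCA1+/- olaparib replicate 3, BRCA1+/- olaparib replicate 4 and WT olaparib replicate 1. The counts without overlap, 905 higher and 108 lower, were 197 lower with normexp, 378 higher with the filter on all arrays, and 1510 higher and 1043 lower within slide 2, where 5 arrays face 3. With an array left out, they ran from 907 to 1189 higher, the most without BRCA1+/- vehicle replicate 4, and from 110 to 285 lower, the most without WT vehicle replicate 4. The lower count was also 209, 199, 172 and 170 without WT vehicle replicate 3, BRCA1+/- vehicle replicate 4, WT olaparib replicate 1 and BRCA1+/- olaparib replicate 4. Cuzd1 reversed to -0.19 with the filter on all arrays, which keeps its other probe. Where not stated, the cause was not tested. Of 3841 values of 126 named genes under the alternatives, 3693 lay within the gene's pooled SD inside the classes of the reported value. Many alternatives leave out a single array, which limits how far a class mean can move. List medians near 0 (granulosa, luteal, oocyte, stroma, macrophage, lymphocyte, red cell, striated muscle, kidney and other organs, cell cycle) changed sign under some alternatives. Dim signals limit the size of the differences: with normexp the medians of the motile cilia lists were 0.77 to 2.26, against 1.78 to 4.57.

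The replicate numbers were not taken to pair the samples. Deviations of same-numbered arrays correlated between -0.46 and 0.73, with 13 of 24 pairs above 0.1 and a median of 0.20. Arrays of different numbers had 22 of 72 pairs above 0.1 and a median of -0.06. These values cannot decide whether the numbers pair the samples, because each replicate number lies on a single slide. With the replicate block, 41 features were 4-fold or more lower. No labelled comparison had a called gene under any of 26 alternatives each, replicate block included (unadjusted counts 1317, 735, 1835, 839 and 1673), with a lowest adjusted p of 0.089, for olaparib in BRCA1+/-.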
